A study of Mus musculus with 6 samples.

Results

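The genes described here are the antigen-presentation and B cell genes, measured by RNA sequencing in 6 libraries of mouse CD4+ T cells. They are 9 of the 55401 genes in the count tables, found by symbol: the MHC class II chain genes H2-Aa, H2-Ab1 and H2-Eb1, their partner Cd74, their activator Ciita, the B cell genes Cd79a, Cd79b and Ms4a1, and the dendritic cell gene Zbtb46. The cells came from spleen, were enriched with magnetic beads as naive CD4+ T cells and were stimulated through CD3 and CD28 for 24 h in all 6 libraries. The 3 Satb1 cKO libraries come from mice with loxP-flanked Satb1 alleles and CD4-Cre, a Cre recombinase under Cd4 regulatory sequences, and are labelled as a conditional knockout. The 3 control libraries are labelled wild type, without a statement on whether these mice carried Cre or were littermates. The labels give neither strain nor age, nor say that each library is its own mouse. The p-values below are therefore relative to differences among these libraries, and those may be technical. Cd4-Cre is active in T lineage cells from the thymus onward.

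MHC class II molecules are pairs of an alpha and a beta chain that present peptides to the receptor of CD4+ T cells. The invariant chain, encoded by Cd74, holds the pair until it reaches the compartment where peptides are loaded, and CIITA is the co-activator that turns these genes on. B cells, dendritic cells and macrophages express them, and resting mouse T cells are known to express little or none. CD79A and CD79B are the signalling partners of the B cell receptor and work as a pair. Ms4a1 encodes CD20, a surface protein of B cells. Zbtb46 encodes a zinc finger factor that marks classical dendritic cells within the immune system and is also known from endothelial cells and erythroid precursors.

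CIITA binds no DNA itself. It docks on factors that sit on the X, X2 and Y boxes of class II promoters, namely the RFX complex, CREB family proteins and NF-Y. The promoter windows of H2-Aa and H2-Eb1 are shown because the results turn on genes that share this control region. They run from 250 bases before to 50 after the RefSeq start (GRCm38.p6), at chr17:34287774-34288073 on the minus strand for H2-Aa and chr17:34305617-34305916 on the plus strand for H2-Eb1. Both are written 5′ to 3′ on the gene's strand, with the X box (CTNGCAAC), X2 box (TGACGTCA) and Y box (CTGATTGG) in capitals.
H2-Aa: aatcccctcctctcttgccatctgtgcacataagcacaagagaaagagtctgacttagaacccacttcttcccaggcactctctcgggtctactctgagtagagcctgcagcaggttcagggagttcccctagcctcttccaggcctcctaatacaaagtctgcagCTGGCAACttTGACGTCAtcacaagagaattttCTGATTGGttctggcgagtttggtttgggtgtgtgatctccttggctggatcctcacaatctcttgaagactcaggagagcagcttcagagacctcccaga
H2-Eb1: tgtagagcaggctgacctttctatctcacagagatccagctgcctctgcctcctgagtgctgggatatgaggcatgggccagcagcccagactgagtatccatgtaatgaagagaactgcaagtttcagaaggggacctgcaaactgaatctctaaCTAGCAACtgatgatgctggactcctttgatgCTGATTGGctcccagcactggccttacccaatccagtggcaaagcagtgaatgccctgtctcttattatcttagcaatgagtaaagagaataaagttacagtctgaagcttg
In H2-Aa the X box starts at -84, the X2 box at -74 and the Y box at -51, so that the X and Y boxes start 33 bases apart. In H2-Eb1 the X box starts at -94 and the Y box at -62, 32 bases apart, and the X2 letters are not in the window. Both strands were searched, the boxes do not overlap each other in these windows, and the letters were set after these promoters had been read, so the matches are a description. Of 32851 RefSeq promoter windows of this length, 3.42% hold the X box letters, 1.79% the X2 letters and 4.1% the Y letters. An X box followed on the same strand by a Y box 20 to 40 bases on is in 7 windows (0.0213%). The windows of Cd79a and Zbtb46 hold none of these letters, and 4 of the 9 members have a window in the table used. The Zbtb46 window, at chr2:181424339-181424638, lies inside the annotated gene (181387762 to 181459426, minus strand). It does not cover the annotated 5′ end of Zbtb46, so the promoter there was not searched.

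Depth was similar across libraries, with 16621609 to 19023023 reads on genes in Satb1 cKO and 14895389 to 20266626 in control. Satb1 itself checks the labels: it stood at 426, 546 and 462 CPM in Satb1 cKO replicates 1, 2 and 3, against 712, 851 and 727 CPM in control replicates 1, 2 and 3 (log2 fold change -0.68, adjusted p = 9.70e-05 in edgeR). These reads cover the whole gene and so do not measure how complete the deletion was. CPM here is the read count of a gene scaled to a common library size with TMM factors, and every set of 3 values below is in the order of the replicate numbers. A gene is called when its Benjamini-Hochberg adjusted p over all 13364 genes tested is under 0.05 in edgeR's quasi-likelihood test. All 9 members had enough reads to be tested.

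Of the 9 members, 6 were higher in Satb1 cKO, 0 were lower and 3 were not called. Across all genes tested 42.3% were called, 21.6% higher and 20.7% lower, so a call by itself is common in this comparison. The median log2 fold change was 1.02 over the members and 0 over all genes tested. In 5 members, H2-Aa, H2-Eb1, Cd79b, Ms4a1 and Zbtb46, every Satb1 cKO library lay above every control library, which 27% of all genes tested did as well. The members sit on 7 chromosomes, with only the 3 class II chain genes next to each other.

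**Figure D1:**
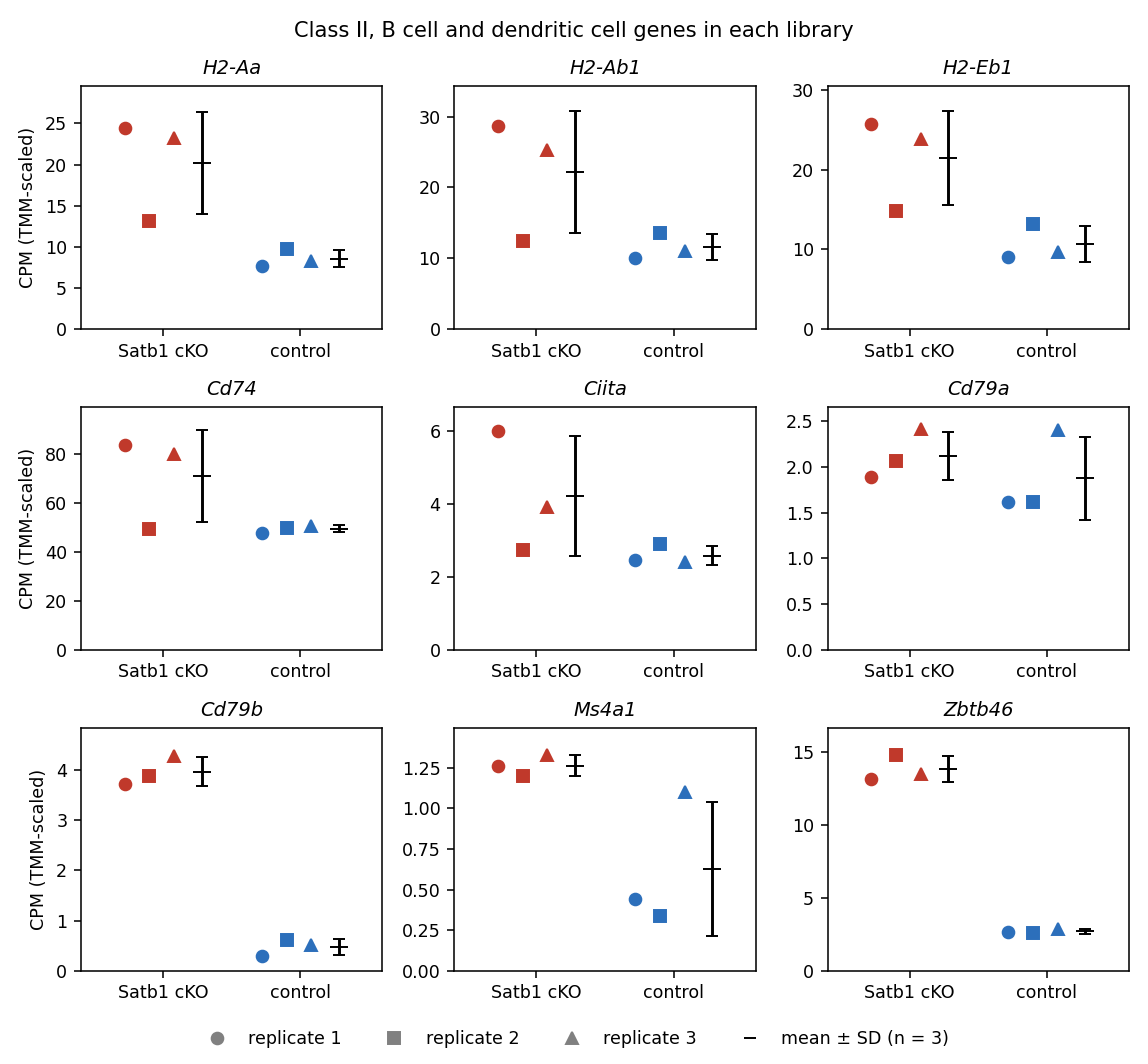
Level of each of the 9 genes in CPM (vertical axes, each starting at 0) in every library, with Satb1 cKO left of control; each symbol is a library, its shape gives the replicate number, and the dash with its bar is the group mean ± SD (n = 3). The class II genes have a low point in Satb1 cKO replicate 2, whereas Cd79b and Zbtb46 form tight groups that stand clear of control.

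The class II chain genes rose about 2-fold on average, but unevenly among the Satb1 cKO libraries. H2-Aa (ENSMUSG00000036594.15, chromosome 17, 34282744 to 34287823, minus strand, GRCm38), the alpha chain of I-A, had 24.4, 13.1 and 23.2 CPM in Satb1 cKO, against 7.68, 9.67 and 8.30 CPM in control. Satb1 cKO replicates 1 and 3 were high, replicate 2 lay between them and control, and the groups did not overlap. This gave a log2 fold change of 1.25 (SE 0.206, adjusted p = 5.56e-04). H2-Ab1 (ENSMUSG00000073421.6, chromosome 17, 34257689 to 34269419, plus strand), the beta chain of I-A, had 28.7, 12.4 and 25.3 CPM in Satb1 cKO, against 10, 13.6 and 11 CPM in control. Here Satb1 cKO replicate 2 lay inside the control range and the other Satb1 cKO libraries above it (log2 fold change 0.95, SE 0.25, adjusted p = 0.00982). H2-Eb1 (ENSMUSG00000060586.11, chromosome 17, 34305867 to 34316674, plus strand), the beta chain of I-E, had 25.8, 14.8 and 23.8 CPM in Satb1 cKO, against 9.06, 13.2 and 9.72 CPM in control. The groups did not overlap, with Satb1 cKO replicate 2 close to control replicate 2 (log2 fold change 1.02, SE 0.198, adjusted p = 0.0016). The pseudogene of the I-E alpha chain, H2-Ea-ps, had 0 reads in every library.

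Summed over the 3 chain genes, Satb1 cKO libraries held 78.9, 40.3 and 72.4 CPM, against 26.8, 36.5 and 29 CPM in control. The order within groups was the same for all 3 genes: replicate 2 was the lowest Satb1 cKO library and the highest control library. Control replicate 2 lay 1.26 to 1.45 times above the lowest control library, and Satb1 cKO libraries spanned 1.74 to 2.31 times.

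Cd74 (ENSMUSG00000024610.15, chromosome 18) was the most abundant member and rose least among the called ones. It had 83.5, 49.3 and 80.2 CPM in Satb1 cKO, against 47.8, 49.9 and 50.7 CPM in control. Control libraries were nearly level, Satb1 cKO replicate 2 was among them, and Satb1 cKO replicates 1 and 3 stood above. The log2 fold change of 0.52 (SE 0.152, adjusted p = 0.0167) lost its call without Satb1 cKO replicate 1 (0.39, adjusted p = 0.0787), without Satb1 cKO replicate 3 (0.43, adjusted p = 0.0766) and in DESeq2 (0.52, adjusted p = 0.0742). Per kilobase of annotated exon the level of Cd74 averaged 42.3 CPM in Satb1 cKO and 29.5 CPM in control, the highest of the 9 members in both groups. The ratio of Cd74 CPM to the summed chain CPM was 1.06, 1.22 and 1.11 in Satb1 cKO, against 1.79, 1.37 and 1.75 in control, so the chains made up more of the class II transcripts in every Satb1 cKO library.

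Ciita (ENSMUSG00000022504.10, chromosome 16, 10480059 to 10528418, plus strand), the co-activator gene, was not called. It had 5.99, 2.75 and 3.92 CPM in Satb1 cKO, against 2.46, 2.89 and 2.40 CPM in control. Satb1 cKO replicate 2 lay below the highest control library, and replicates 1 and 3 above all of them. The log2 fold change was 0.72 (95% interval 0.13 to 1.31, adjusted p = 0.0506). It passed when Satb1 cKO replicate 2 was left out (0.95, adjusted p = 0.00914) and when genes with low counts were kept in the test (0.71, adjusted p = 0.00581). Exons of Dexi overlap 3.45% of the exon length of Ciita, and the strand setting of the counting is not given. Dexi was at 11.4 ± 0.256 CPM in Satb1 cKO and 11.5 ± 0.229 CPM in control (SD, n = 3 each).

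The genes that serve the class II pair were read next. Of 13 genes for peptide loading, invariant chain cleavage, turnover and other class II chains, 11 were tested, 3 were higher and 0 lower, with a median log2 fold change of 0.34. Over all genes tested 21.6% were higher, so this count is near the background. H2-Ob, the beta chain of the loading modulator H2-O, had 19.3, 17.3 and 18 CPM in Satb1 cKO, against 12.7, 9.87 and 12.1 CPM in control (log2 fold change 0.65, SE 0.107). Ctsl, a lysosomal protease that cleaves the invariant chain in the thymus, had 12.1, 11.8 and 10.7 CPM in Satb1 cKO, against 4.82, 4.03 and 6.61 CPM in control (1.16, SE 0.163). Both were level among the Satb1 cKO libraries, unlike the class II chains. H2-DMb1, named after its values were seen, was not level, with 1.52, 0.401 and 1.27 CPM in Satb1 cKO, and was not called. Over the 9 genes of the list with a mean of at least 1 CPM, Satb1 cKO replicate 2 over replicates 1 and 3 had a median ratio of 0.927. These ratios ran from 0.556 to 1.25, and 1 was below 0.7. March1, a ubiquitin ligase that removes class II from the surface, rose as well (1.30, SE 0.37, adjusted p = 0.0146). That call was lost without Satb1 cKO replicate 1 (1.00, adjusted p = 0.0716), without control replicate 1 (1.12, adjusted p = 0.0589) and without control replicate 2 (1.26, adjusted p = 0.0526). The gene of the loading catalyst's alpha chain, H2-DMa, chosen after its values were seen, averaged 15.3 ± 1.4 CPM in Satb1 cKO and 15.5 ± 6.04 CPM in control (log2 fold change -0.01, adjusted p = 0.975).

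Of the 7 genes for factors that bind the X, X2 and Y boxes, 1 was higher and 0 lower (median log2 fold change 0.09). The gene that rose was Creb1, at 179 ± 6.34 CPM in Satb1 cKO and 145 ± 2.95 CPM in control (SD, n = 3 each; log2 fold change 0.31, SE 0.0427, adjusted p = 1.69e-04). Of 7 genes of the interferon gamma pathway, which induces Ciita in many cell types, 2 were higher and 2 lower (median 0.05). Over all genes tested 21.6% were higher and 20.7% lower, so the counts of both lists are not far from the background. Ifng, the cytokine gene, had 10.8, 6.47 and 14 CPM in Satb1 cKO, against 0.295, 0.739 and 1.88 CPM in control (log2 fold change 3.49, SE 0.436, adjusted p = 8.12e-05). Its lowest Satb1 cKO library was replicate 2, as for Ciita, and its highest was replicate 3, where that of Ciita was replicate 1. Irf1, of the same list and named after its values were seen, was not called (log2 fold change 0.05, adjusted p = 0.822). It averaged 199 ± 15.2 CPM in Satb1 cKO and 192 ± 54 CPM in control. Whether Ifng affects Ciita in these cells was not tested. In the same pathway the receptor chain gene Ifngr1 rose (1.48, SE 0.115) and the kinase gene Jak1 fell (-0.26, SE 0.0332). Ifngr2, named after its values were seen, fell as well (-0.32, SE 0.0769).

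**Figure D2:**
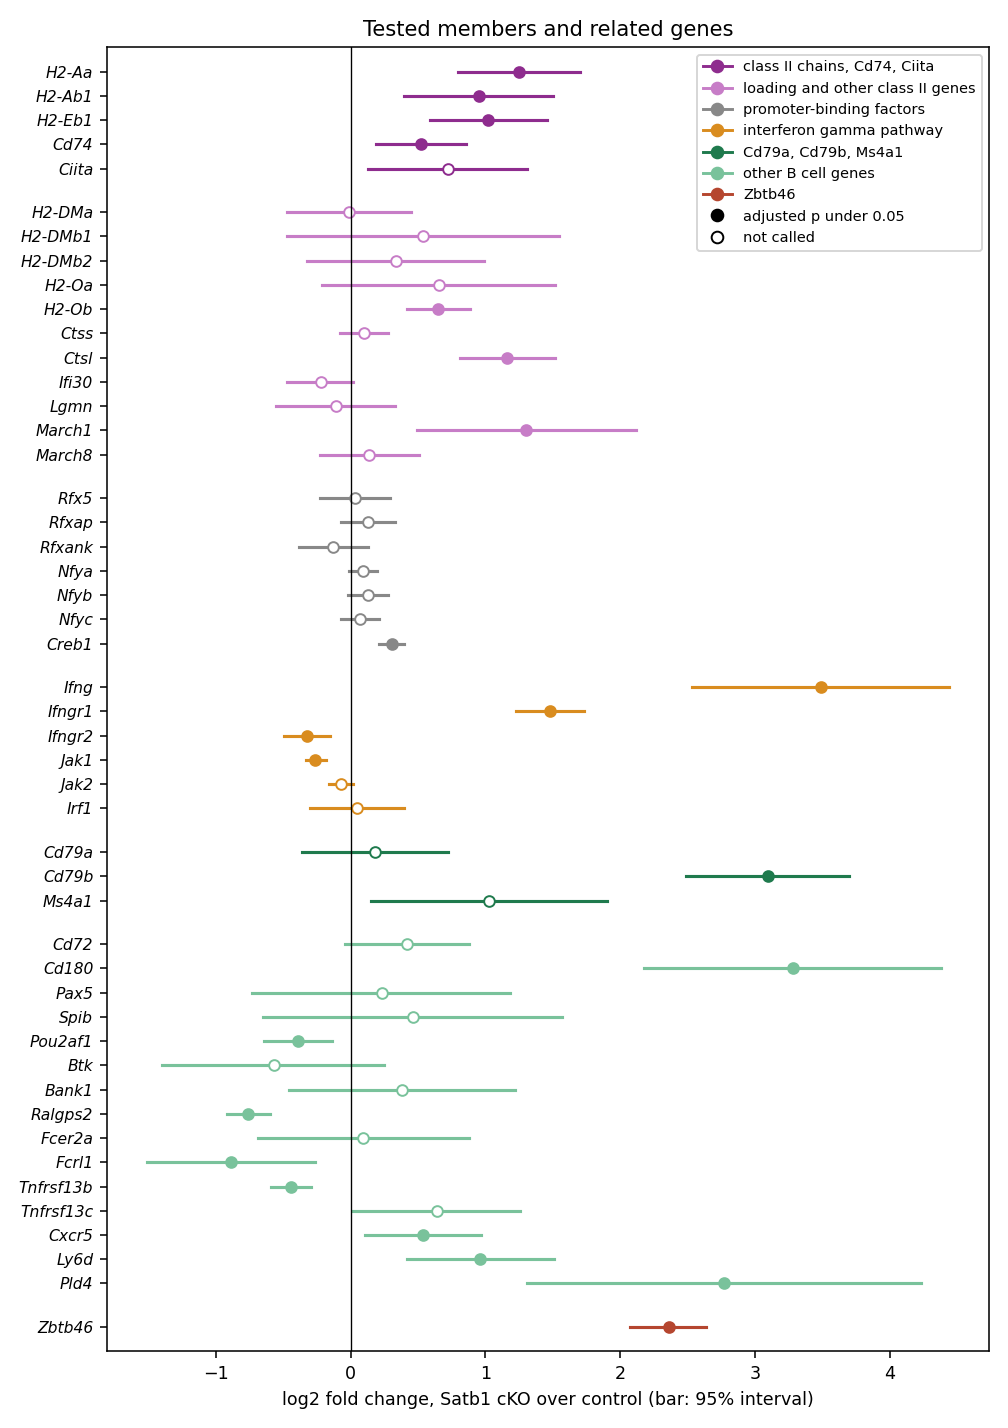
Log2 fold change of Satb1 cKO over control (horizontal axis) with its 95% interval for tested genes of the class II, promoter-binding, interferon gamma and B cell lists and for Zbtb46, from edgeR; filled points have an adjusted p under 0.05. The 3 class II chains cluster near 1, the promoter-binding factors lie near 0, and Cd79b at 3.10 stands far from Cd79a at 0.18.

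The B cell genes did not move together. Cd79b (ENSMUSG00000040592.11, chromosome 11, 106311341 to 106314762, minus strand) had 3.73, 3.89 and 4.29 CPM in Satb1 cKO, against 0.295, 0.604 and 0.519 CPM in control. Satb1 cKO libraries were level and lay far above the control libraries. With 210 reads in Satb1 cKO and 23 in control, the fitted fold change was 8.55 (log2 fold change 3.10, SE 0.275, adjusted p = 6.34e-06). Cd79a (ENSMUSG00000003379.7, chromosome 7, 24897381 to 24902197, plus strand) had 1.89, 2.06 and 2.41 CPM in Satb1 cKO, against 1.62, 1.61 and 2.40 CPM in control. The groups overlapped, and the log2 fold change of 0.18 was not called (95% interval -0.36 to 0.72, adjusted p = 0.586).

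Within each library the receptor pair can be set against itself. Cd79b reads divided by Cd79a reads gave 1.97, 1.89 and 1.78 in Satb1 cKO, against 0.182, 0.375 and 0.216 in control. The mean ratio was 1.88 ± 0.099 in Satb1 cKO and 0.258 ± 0.103 in control (SD, n = 3 each). The ratios did not overlap; a 2-sided exact permutation test gave p = 0.10, the smallest that 3 against 3 libraries allow. Per kilobase of exon the level of Cd79b was 2.77 CPM in Satb1 cKO and 0.33 CPM in control, and that of Cd79a 1.46 and 1.29 CPM.

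Ms4a1 (ENSMUSG00000024673.9, chromosome 19, 11249675 to 11266241, minus strand) had 1.26, 1.20 and 1.33 CPM in Satb1 cKO, against 0.443, 0.336 and 1.1 CPM in control. Every Satb1 cKO library lay above every control library, but control replicate 3 came close. The gene rested on 67 reads in Satb1 cKO and 31 in control and was not called (log2 fold change 1.03, SE 0.399, adjusted p = 0.0588). It passed when control replicate 3 was left out (1.65, adjusted p = 0.0103) and when genes with low counts were kept in the test (1.01, adjusted p = 0.0401).

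Other B cell genes were compared in the same way. Of 26 B cell identity genes, 16 were tested, 5 were higher and 4 lower, with a median log2 fold change of 0.4. With 21.6% of all genes tested higher and 20.7% lower, these counts are not far from the background. The summed level of the 26 genes was 94 to 103 CPM in Satb1 cKO and 115 to 126 CPM in control. Its largest parts were Ralgps2, Tnfrsf13b and Pou2af1, all called lower. Their means were 23.4, 24.4 and 16 CPM in Satb1 cKO, against 39.8, 33.1 and 20.9 CPM in control. The lower sum therefore does not describe the rest of the list. Cd180, a Toll-like receptor homologue of B cells and myeloid cells, rose (log2 fold change 3.28, SE 0.501, adjusted p = 3.37e-04). Pld4, Ly6d and Cxcr5 rose with log2 fold changes of 2.77, 0.96 and 0.54. Cd180 rested on 64 reads in Satb1 cKO and 6 in control, and Pld4 on 60 and 8. Ralgps2 (-0.76, SE 0.0731) and Tnfrsf13b, the TACI receptor gene (-0.44, SE 0.0694), fell, as did Pou2af1 and Fcrl1. Pld4, Ly6d, Cxcr5, Pou2af1 and Fcrl1 were named after their values were seen.

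Zbtb46 (ENSMUSG00000027583.13, chromosome 2, 181387762 to 181459426, minus strand) had 13.1, 14.8 and 13.5 CPM in Satb1 cKO, against 2.66, 2.55 and 2.85 CPM in control. Both groups were level within themselves and stood far apart, and replicate 2 was the highest Satb1 cKO library. The rise had a log2 fold change of 2.36 (SE 0.129, adjusted p = 1.65e-07), from 731 reads in Satb1 cKO and 136 in control, and stayed between 2.30 and 2.39 over the 12 alternative analyses. Of 20 other dendritic cell genes, 13 were tested, 7 were higher and 1 lower (median log2 fold change 0.62). Over all genes tested 21.6% were higher and 20.7% lower. The summed level of the 20 genes was 1887 to 2090 CPM in Satb1 cKO and 1161 to 1344 CPM in control. The chemokine receptor gene Ccr7, which naive T cells also express and which was named after its values were seen, was on average the largest part of the sum, with means of 865 CPM in Satb1 cKO and 880 CPM in control, and was not called. The difference between the sums was mostly Irf8, a factor of dendritic cells and B cells, at 829, 727 and 882 CPM in Satb1 cKO, against 64.7, 137 and 129 CPM in control. Bst2 (0.68) and Cst3 (0.62) rose as well. Wdfy4 (1.47), Batf3 (1.33), Sirpa (1.56) and Tcf4 (0.67), named after their values were seen, complete the rises, and Naaa, likewise named, fell (-1.07). Itgax, encoding CD11c and also named after its values were seen, had too few reads to be tested, with 55 in Satb1 cKO and 10 in control. The subset markers Clec9a, Xcr1, Cd209a and Siglech, picked in the same way, had 3, 14, 2 and 10 reads over the 3 Satb1 cKO libraries and 2, 13, 1 and 1 over the 3 control libraries. Flt3, likewise picked, ran from 0.801 to 1.37 CPM in Satb1 cKO and from 0.64 to 1.41 CPM in control (adjusted p = 0.993). The part of dendritic cells in the levels of Zbtb46 and Irf8, and in the summed level of the list, was not tested.

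The spread among the Satb1 cKO libraries differed between the members. It was measured as the CPM of Satb1 cKO replicate 2 over that of replicates 1 and 3, from pooled reads with an exact 95% Clopper-Pearson interval that covers counting error only. The ratio was 0.55 (0.473 to 0.637) for H2-Aa, 0.458 (0.393 to 0.531) for H2-Ab1 and 0.596 (0.517 to 0.685) for H2-Eb1. Cd74 gave 0.602 (0.557 to 0.65) and Ciita 0.546 (0.389 to 0.755). All 5 class II members were therefore lower in Satb1 cKO replicate 2 than in replicates 1 and 3 pooled by more than counting error. The intervals do not compare replicate 2 with each of these libraries. For Ciita, replicate 1 over the others was 1.8 (1.38 to 2.36) and replicate 3 over the others 0.884 (0.653 to 1.19). Replicate 2 was the lowest Satb1 cKO library for all 5, and the intervals make no allowance for that choice.

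For the remaining members the intervals include 1. The ratio was 0.965 (0.63 to 1.45) for Cd79a, 0.976 (0.72 to 1.31) for Cd79b, 0.93 (0.527 to 1.59) for Ms4a1 and 1.11 (0.951 to 1.3) for Zbtb46. For Ms4a1 the interval includes the ratios of all class II members but H2-Ab1, so a dip of that size was not detectable at this depth. Control libraries gave another picture: the highest over the lowest was 3.28 for Ms4a1, 2.05 for Cd79b and 1.49 for Cd79a, which rest on few reads, 1.12 for Zbtb46 and 1.06 to 1.45 for the class II members.

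T cell genes were level. Over 20 of them the same ratio had a median of 1.04 and ran from 0.934 to 1.15. Their summed level was 5859 to 6068 CPM in Satb1 cKO and 6923 to 7236 CPM in control. Of the 20 genes, 3 were higher and 13 lower in Satb1 cKO (median log2 fold change -0.23). Over all genes tested 21.6% were higher and 20.7% lower. The T cell genes of smallest p were Lef1 (-0.99), Cd28 (-0.84) and Tcf7 (-0.64). Among the 12120 genes with a mean of at least 1 CPM, the median ratio was 1, the middle 90% lay between 0.77 and 1.24, and 3.29% lay below 0.7. These ratios are a description, since the replicates of a group have no order and genes are not independent samples.

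Many myeloid markers, though not all, were lowest in Satb1 cKO replicate 2, like the class II members. Of 16 monocyte, macrophage and neutrophil genes, 14 were tested. All 14 were higher in Satb1 cKO (median log2 fold change 2.36), against 21.6% of all genes tested. The summed level of the 16 genes was 141, 96.4 and 181 CPM in Satb1 cKO, against 25.3, 31.4 and 28.3 CPM in control. None was at 0 in every library. For 8 of the 13 with at least 1 CPM the ratio of Satb1 cKO replicate 2 to replicates 1 and 3 was below 0.7, with a median of 0.536 and a range from 0.257 to 1.23. Lyz2, the lysozyme gene, had 62.3, 41.1 and 93 CPM in Satb1 cKO, against 9.89, 10.3 and 7.52 CPM in control. The macrophage genes Csf1r and Adgre1, picked from the list after their values were seen, had ratios of 0.323 and 0.257, lower than any class II member. Ly6c2 (2.84) and S100a9 (3.98) rose with ratios of 0.794 and 0.757. S100a9 was lowest in Satb1 cKO replicate 1, with 5.15, 5.95 and 11 CPM in Satb1 cKO. Replicate 2 was the lowest Satb1 cKO library for 10 of the 13 myeloid genes, and for 3726 of all 12120 genes at that level. Of the 13 dendritic cell genes with at least 1 CPM, 5 had a ratio below 0.7 (median 0.908), and replicate 2 was lowest for 7. Of the 12 B cell identity genes at that level, 3 had such a ratio (median 0.875), and replicate 2 was lowest for 8. The part of these cells in the class II result was not tested. In bulk RNA, more cells of a type and more RNA per cell cannot be told apart.

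Red cell genes had another order. All 6 were called higher, against 21.6% of all genes tested, with a median log2 fold change of 5.6. Their summed level was 309, 1858 and 1606 CPM in Satb1 cKO, against 24.8, 31.4 and 27.5 CPM in control. Satb1 cKO replicate 1 held 0.109 to 0.274 times the level of the other Satb1 cKO libraries for these genes, against 0.929 (0.794 to 1.09) for Zbtb46 and 1.30 to 1.80 for the class II members.

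**Figure D3:**
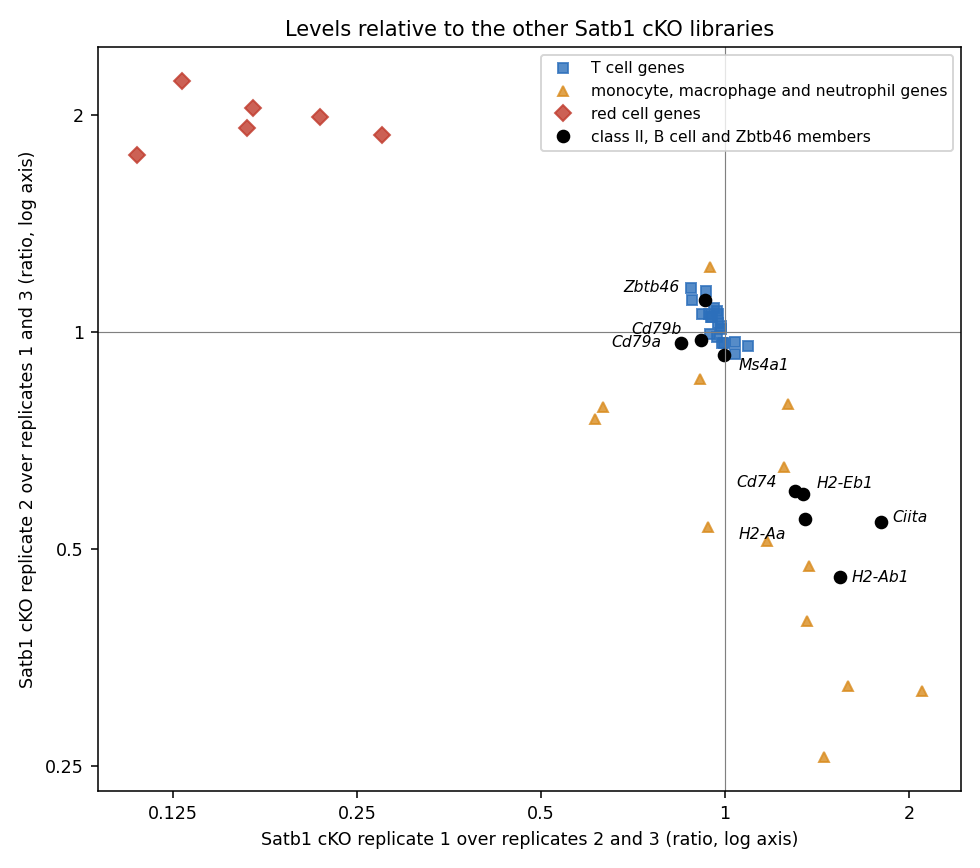
Each point is a gene: Satb1 cKO replicate 1 over replicates 2 and 3 (horizontal, log axis) against Satb1 cKO replicate 2 over replicates 1 and 3 (vertical, log axis), as ratios of CPM; lines mark a ratio of 1. The 5 class II members lie at lower right with many myeloid genes, Cd79a, Cd79b, Ms4a1 and Zbtb46 lie with the T cell genes near 1, and the red cell genes lie apart at upper left.

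Genes most like the class II group over all 6 libraries were sought among tested protein-coding genes with a mean of at least 1 CPM. Likeness was the root mean square difference in log2 CPM, centred on each gene's mean, from the average of H2-Aa, H2-Ab1, H2-Eb1 and Cd74. Slc7a11, encoding the cystine transporter xCT, was nearest (difference 0.0806), with 20.2, 11.7 and 19.3 CPM in Satb1 cKO, against 8.17, 11.7 and 8.56 CPM in control. Rasa4 followed (0.0914), with 6.62, 3.49 and 6.04 CPM in Satb1 cKO, against 2.71, 2.89 and 2.98 CPM in control. Gstm1, Src and Adam8 came next, at differences of 0.164 to 0.175. The rise of Src (0.80, adjusted p = 0.0162) was not called without Satb1 cKO replicate 1 (0.67), Satb1 cKO replicate 3 (0.75) or control replicate 1 (0.73).

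Genes nearest to the average of Cd79a, Cd79b and Ms4a1 were Syde1, Unc93b1, Icam1, Ifitm1 and Tlr6, at differences of 0.116 to 0.147. That average mixes a level gene with a raised one, so no single B cell member has quite this pattern. Icam1, an adhesion receptor gene, stood at 181, 183 and 188 CPM in Satb1 cKO, against 58.9, 72 and 81.3 CPM in control.

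Chromosomal neighbours were compared as the 3 nearest tested genes on each side of every member, a comparison chosen after the data were seen. Of 42 distinct neighbours that are not members, 11 were higher and 8 lower. With 21.6% of all genes tested higher and 20.7% lower, these counts are near the background. On chromosome 17, H2-Ob, H2-Ab1, H2-Aa and H2-Eb1 were called higher as a run of adjacent tested genes, with log2 fold changes of 0.65, 0.95, 1.25 and 1.02. Around Zbtb46, 0 of 6 neighbours were higher and 2 were lower. Around Cd79b 2 were higher and 2 lower, and around Cd79a 2 were higher and 1 lower. Near Ciita only Socs1, encoding an inhibitor of cytokine signalling, was called, at 137 ± 9 CPM in Satb1 cKO and 62.4 ± 14.8 CPM in control (SD, n = 3 each; log2 fold change 1.15, adjusted p = 3.69e-05).

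**Figure D4:**
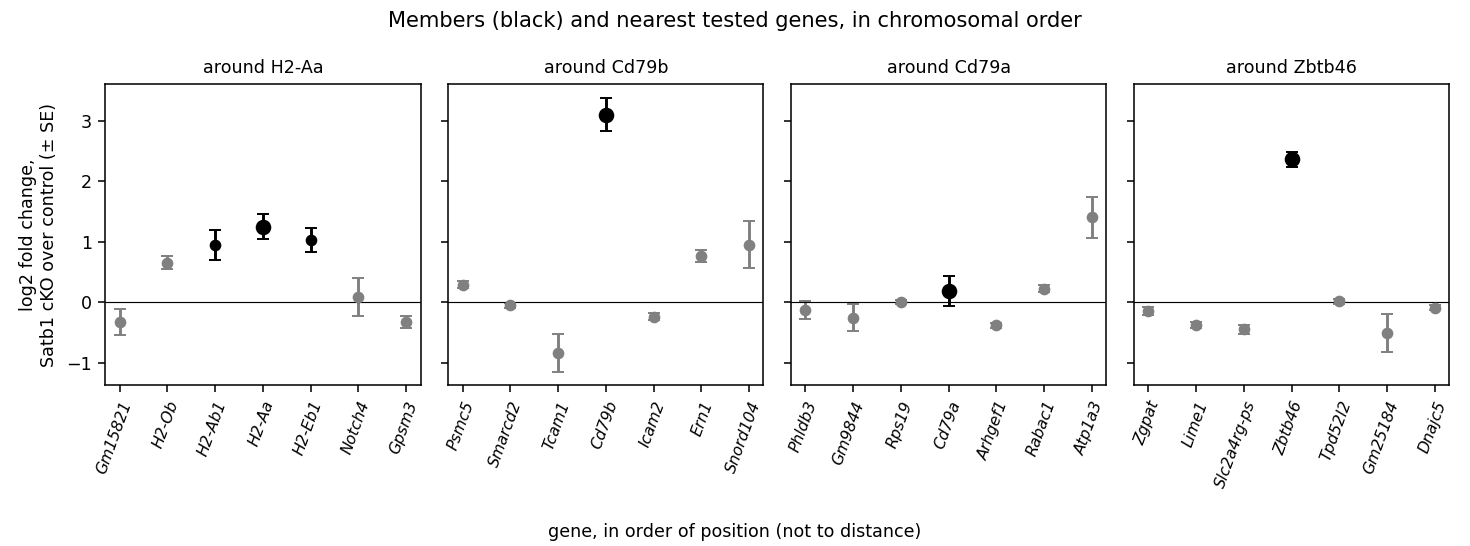
Log2 fold change of Satb1 cKO over control with its SE (vertical axis) for 4 members, with members in black, and the 3 nearest tested genes on each side, in grey for non-members, in chromosomal order (horizontal axis). Shown are H2-Aa, Cd79b, Cd79a and Zbtb46; H2-Ob and the class II chains form a run above 0, whereas Zbtb46 at 2.36 and Cd79b at 3.10 stand above all of their neighbours shown.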

How the data were processed

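The authors deposited a table of raw counts for each of 6 libraries, as unnormalized whole reads. The submitters' processing notes name STAR 2.7.3a, HTSeq 0.12.4 and the build mm10. Which gene annotation was counted, and whether by strand, is not given in the sources used here. HTSeq's summary lines entered neither library sizes nor tests; the no-feature line held 7.32 to 7.61% of reads in Satb1 cKO and 9.18 to 9.5% in control. Symbols, positions and exon lengths came from GENCODE M21 (GRCm38), which matched 55141 of 55401 genes by identifier without version. Groups and replicate numbers came from the sample titles.

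Counts were fitted with edgeR 4.0.16 in R 4.3.3 (filterByExpr, TMM, glmQLFit and glmQLFTest, group as the only term), and p-values were adjusted over all 13364 genes tested. Standard errors were derived from the F statistic. The biological coefficient of variation was 6.27%. No libraries held identical counts, and replicates differed by more than sampling noise (chi-square over its degrees of freedom, 2.09 to 6.9), so each counted as 1 sample. The fit was also run on counts simulated from its own estimates, which cannot show how well the model suits these data. Reads carry no molecular identifiers, so intervals on ratios cover counting error only.

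Named genes were the members, up to 3 called genes of smallest p from each marker list (mean of at least 1 CPM in the higher group, no overlap between groups), the 5 genes nearest to each pattern, and Satb1. Some single genes of these lists enter the counts and are not reported here by name. The text says where a gene outside this rule was picked with its values known. Members and lists were chosen with earlier results of these data known. Alternatives were other scaling (RLE, none, without immunoglobulin, T cell receptor, mitochondrial and globin genes), DESeq2 1.42.0, no filter, the replicate number as a block, and each library left out.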

Additional observations from a re-analysis of the deposited data

How the results depend on the processing

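Over 12 alternatives, H2-Aa, H2-Ab1, H2-Eb1, Cd79b and Zbtb46 were called higher in all 12 and Cd79a in 0. H2-Ab1 came close to the threshold, with an adjusted p of 0.0496 in edgeR without Satb1 cKO replicate 1 (log2 fold change 0.71). Cd74 was called in 9, and not in DESeq2 (log2 fold change 0.52, adjusted p = 0.0742) or without Satb1 cKO replicate 1 or 3; with a library left out its log2 fold change ran from 0.39 to 0.72. Without a filter on low counts, which tests 26132 genes, Ciita (0.71) and Ms4a1 (1.01) passed; with a library left out they ran from 0.37 to 0.95 and from 0.75 to 1.65. The cause of these changes was not tested. No member reversed. The number of members called was 6 in the reported analysis, 5 in DESeq2, 8 without a filter and 5 to 7 with a library left out. Same-numbered libraries of the groups did not deviate together (correlations of 0.0215, -0.0125 and 0.0279). These values gave no sign of pairing by number but cannot exclude it. By chi-square, replicate 1 differed most from its sister libraries in both groups. With the replicate block 5563 genes and 6 members were called. For the 36 other named genes, 422 of 428 values kept direction and call, and the 6 that lost the call belong to March1 and Src. Among the members, low reads limit Ms4a1, Cd79a and control Cd79b most.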

Other observations

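Immunoglobulin and plasma cell genes, which B lineage cells secrete or use on the way to antibody secretion, were measured beside the B cell members. Of 7 immunoglobulin constant and joining chain genes, 4 were tested, 2 were higher in Satb1 cKO and 0 lower. Over all genes tested 21.6% were higher and 20.7% lower. Igkc, the kappa light chain constant gene, had 14, 29.8 and 32.7 CPM in Satb1 cKO, against 1.67, 0.671 and 3.63 CPM in control (log2 fold change 3.68, SE 0.413, adjusted p = 3.67e-05 in edgeR). Jchain, which joins secreted IgM and IgA, had 6.04, 9.96 and 8.45 CPM in Satb1 cKO, against 0.492, 0.201 and 1.56 CPM in control (3.46, SE 0.405). Both were lowest in Satb1 cKO replicate 1, at 0.448 and 0.655 times the other Satb1 cKO libraries, whereas Cd79b was level and the class II members were lowest in replicate 2. Ighm, the heavy chain gene of IgM, picked after its values were seen, averaged 268 ± 33.6 CPM in Satb1 cKO and 248 ± 29.5 CPM in control and was not called (adjusted p = 0.362). Of 4 plasma cell genes, 2 were tested and 1, Sdc1, the gene of CD138, rose (1.34, SE 0.32, adjusted p = 0.00568). Mzb1, picked after its values were seen, had 1 read over the 3 Satb1 cKO libraries and 0 over the 3 control libraries.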
